A study of Mus musculus with 7 samples.

Results

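The genes described here are 30 genes of cholesterol and fatty-acid synthesis, chosen by symbol from the 32285 genes of the count tables, and all 30 were found. They fall into 7 genes of the mevalonate and isoprenoid steps, 11 of the squalene and sterol steps, 4 of control and sterol transport and 8 of fatty-acid synthesis and desaturation. All 30 gene identifiers matched protein-coding genes of the GENCODE annotation of GRCm38. Their levels come from droplet-based sequencing of single-cell RNA from whole brain tumours, in 7 libraries. The tumours grew in wild-type C57BL/6 mice of 7 to 10 weeks from NSCG-mCherry, a single mouse glioma line without Arf/Ink4a and with the mutant EGF receptor EGFRvIII, so that every group shares these alterations. At least 2 mice were pooled per library at about day 14, and a pooled library is 1 replicate, so p-values measure the spread between libraries and not between mice.

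UT (1 library) was an untreated control. IgG (2 libraries) received an IgG2b isotype antibody at 10 mg/kg, and for the BPI experiment the labels add an oral diluent without saying which IgG library had it. BP (2 libraries) received B20, an antibody to VEGF, at 5 mg/kg with an antibody to PD-L1 at 10 mg/kg every 3 days. BPI (1 library) received the same antibodies with daily IPI-145, an inhibitor of the delta and gamma forms of PI3 kinase, at 10 mg/kg by mouth. CD40 (1 library) received an agonist antibody to CD40 at 100 µg per dose in 2 doses 5 days apart, and it is not clear from the labels if these mice were also vaccinated with dendritic cells. The library names in the labels run in sequence over IgG replicate 1, BP replicate 2 and BPI, here set A, and again over IgG replicate 2 and CD40, here set B. UT and BP replicate 1 stand alone. The labels do not call these sets batches. Treated and control libraries were compared within a set, which gives 1 library against 1 and no test.

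Cells build cholesterol from acetyl-CoA through mevalonate, farnesyl diphosphate, squalene and lanosterol, and build fatty acids from the same acetyl-CoA through malonyl-CoA. The transcription factors SREBP-2 and SREBP-1, encoded by Srebf2 and Srebf1, switch on the sterol and the fatty-acid genes when sterols in the endoplasmic reticulum are low, and INSIG proteins hold them back when sterols are high. In the brain, plasma cholesterol hardly passes the blood-brain barrier, so cells there depend largely on sterols made locally.

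Sequences from 250 bases before to 50 bases after the transcription start are printed for 5 members because these 5, with Fdps, were the members more than 1.5-fold lower in both BPI and CD40 tumour-like cells than in the IgG library of their set. They come from RefSeq on GRCm38.p6, read 5′ to 3′ on the strand of the gene: Hmgcs1 on chr13:119690101-119690400 (plus strand), Idi1 on chr13:8885356-8885655 (plus), Lss on chr10:76531355-76531654 (plus), Msmo1 on chr8:64733529-64733828 (minus) and Insig1 on chr5:28071162-28071461 (plus). Capitals mark the NF-Y box CCAAT on either strand, where it reads CCAAT or ATTGG, and in Hmgcs1 also the sterol-response core TCACNCCAC.
Hmgcs1: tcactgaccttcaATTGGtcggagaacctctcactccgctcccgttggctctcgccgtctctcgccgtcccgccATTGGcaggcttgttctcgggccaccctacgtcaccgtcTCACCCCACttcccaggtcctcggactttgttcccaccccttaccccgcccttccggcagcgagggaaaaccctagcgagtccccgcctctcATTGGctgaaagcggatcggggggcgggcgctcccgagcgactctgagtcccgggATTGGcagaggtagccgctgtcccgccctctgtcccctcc
Idi1: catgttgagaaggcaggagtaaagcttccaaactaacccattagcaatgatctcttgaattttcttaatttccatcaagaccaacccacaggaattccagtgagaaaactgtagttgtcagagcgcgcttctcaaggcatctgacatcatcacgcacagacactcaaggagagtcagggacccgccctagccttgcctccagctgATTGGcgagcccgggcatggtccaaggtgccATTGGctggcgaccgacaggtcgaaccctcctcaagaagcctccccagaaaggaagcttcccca
Lss: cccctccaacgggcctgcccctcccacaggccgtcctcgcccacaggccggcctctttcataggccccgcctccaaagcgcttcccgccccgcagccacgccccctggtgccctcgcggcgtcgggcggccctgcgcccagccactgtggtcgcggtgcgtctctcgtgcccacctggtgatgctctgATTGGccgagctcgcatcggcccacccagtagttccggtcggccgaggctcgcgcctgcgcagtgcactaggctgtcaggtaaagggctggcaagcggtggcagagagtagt
Msmo1: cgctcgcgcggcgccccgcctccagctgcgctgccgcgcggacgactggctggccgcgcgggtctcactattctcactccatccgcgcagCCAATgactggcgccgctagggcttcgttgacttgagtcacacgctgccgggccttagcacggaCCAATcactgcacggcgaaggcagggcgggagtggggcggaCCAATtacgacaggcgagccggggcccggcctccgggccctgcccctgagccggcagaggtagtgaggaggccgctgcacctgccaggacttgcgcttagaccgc
Insig1: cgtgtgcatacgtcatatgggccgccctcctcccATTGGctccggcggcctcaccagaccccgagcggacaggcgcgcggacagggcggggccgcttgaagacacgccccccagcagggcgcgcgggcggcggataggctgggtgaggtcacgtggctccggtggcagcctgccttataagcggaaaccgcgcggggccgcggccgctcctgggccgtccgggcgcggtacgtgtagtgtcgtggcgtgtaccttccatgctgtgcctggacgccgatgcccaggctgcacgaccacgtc
The Hmgcs1 window holds 4 NF-Y boxes and the 1 sterol-response core, Msmo1 holds 3 boxes, Idi1 2, and Lss and Insig1 hold 1 each. NF-Y and Sp1 are general promoter factors known as partners of SREBP. Of the 30 members, 23 had a window in the table, and the box was in 19 of these 23 (82.6%), against 41.1% of 27025 genes with a window. The Sp1 box GGGCGG, also searched on both strands, was in 19 of 23 (82.6%), against 38.2% of genes. The sterol-response core was in 1 of 23 (4.35%), against 1.44% of genes. At least 2 NF-Y boxes stood in 10 of 28 member windows (35.7%), against 11.7% of all windows. None of the 3 motifs contains another, and these matches describe letters in the windows and not binding.

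The libraries held 68997476 to 186793886 unique molecules (UMIs), with 5811 to 10734 barcodes of at least 1000 UMIs, and pairs of libraries shared 10 to 27 of these barcodes, but only 0 to 4 where UT was one of the pair. The labels give the same chemistry for all libraries, and whether UT was prepared otherwise was not tested. After filtering, 48588 cells were clustered without the members, and classes were named from marker genes. Of all cells 11.5% stayed unnamed, from 4.45% in BP replicate 1 to 26.7% in UT. Tumour-like cells numbered 2635 to 5906 per library, microglia-like cells 155 to 874, monocyte/macrophage-like cells 70 to 1805, T-like cells 39 to 1287 and endothelial-like cells 6 to 141. The 12 tumour markers summed to 575 to 1241 CPM in tumour-like cells (a gene's UMIs per 1000000 UMIs of a class in a library). Tumour-like cells of set A lay mostly in clusters c10, c23 and c25, where 4 of the 12 markers were raised, and those of the other 4 libraries in other clusters, where 8 to 10 were. The 11 monocyte/macrophage markers were lower in that class in set B, at a sum of 1401 CPM in CD40 and 1681 CPM in IgG replicate 2, than in the other 5 libraries, at 5304 to 11706 CPM. The microglia-like class held 2 clusters: c19, and c13 with 492 cells, where 7 of 8 microglia markers but also 7 of the 11 monocyte/macrophage markers were raised. Cluster c13 gave 133 of 155 microglia-like cells in UT and 258 of 260 in BP replicate 1, and c19 gave most of them in the other 5 libraries. RNA free in the droplets was estimated to give 2.99% to 7.19% of the UMIs of tumour-like cells and up to 22.9% of those of microglia-like cells.

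Across classes, the tumour-like cells were first by mean CPM over libraries for 25 of 30 members. The exceptions were Dhcr7, first in microglia-like cells, Ebp, first in monocyte/macrophage-like cells, and Mvk, Srebf1 and Stard4, first in endothelial-like cells. The share of all genes first in tumour-like cells is not given, so the 25 cannot be read as a trait of the members. With library totals, the scale of CPM, 50.4% to 57.6% of all genes were called higher in tumour-like cells than in a tested class. Endothelial-like means cover 4 libraries (UT, BP replicate 1, CD40 and IgG replicate 2), and those of the other classes cover 7. In the same 4 libraries Srebf1 averaged 21.9 CPM in tumour-like and 19.4 CPM in endothelial-like cells, so its first class depends on the libraries averaged. Summed UMIs of 4 classes were tested with the edgeR quasi-likelihood test, with the library as a block, 7 libraries per class and Benjamini-Hochberg adjustment over 12865 genes at 0.05. Against microglia-like cells 19 of 30 members were higher in tumour-like cells and 2 lower, where 37.7% of all genes were higher and 33.1% lower, and the median log2 difference was 0.89 over the members and 0.11 over all genes. Against monocyte/macrophage-like cells 16 were higher and 2 lower (all genes 38.2% and 34.5%), with medians of 0.42 and 0.10. Against T-like cells 22 were higher and 2 lower (all genes 36.4% and 29.4%), with medians of 0.99 and 0.14. The share of members higher was above that of all genes in each of these contrasts, and no test of the list itself was made. These differences depend on TMM, the edgeR scaling that evens out the make-up of the classes. On its scale, 7 of the 25 members first by mean CPM had a fitted difference below 0 against at least 1 of the other 3 classes: Hmgcs1, Pmvk, Mvd, Nsdhl and Insig1 against monocyte/macrophage-like cells (-0.38 to -0.07 for these 5, none past the test) and Fdft1 and Sc5d against T-like cells (-0.19 and -0.01). The other 18 were above all 3, and the share of all genes above all 3 is not given. With library totals in its place, an alternative chosen after seeing the data, the medians over all genes were 0.49, 0.68 and 0.58, and 25, 22 and 24 members were higher (all genes 50.4%, 57.6% and 52.0%). No member was then lower in tumour-like cells in these 3 contrasts, where 25.04%, 22.7% and 19.7% of all genes were.

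**Figure D1:**
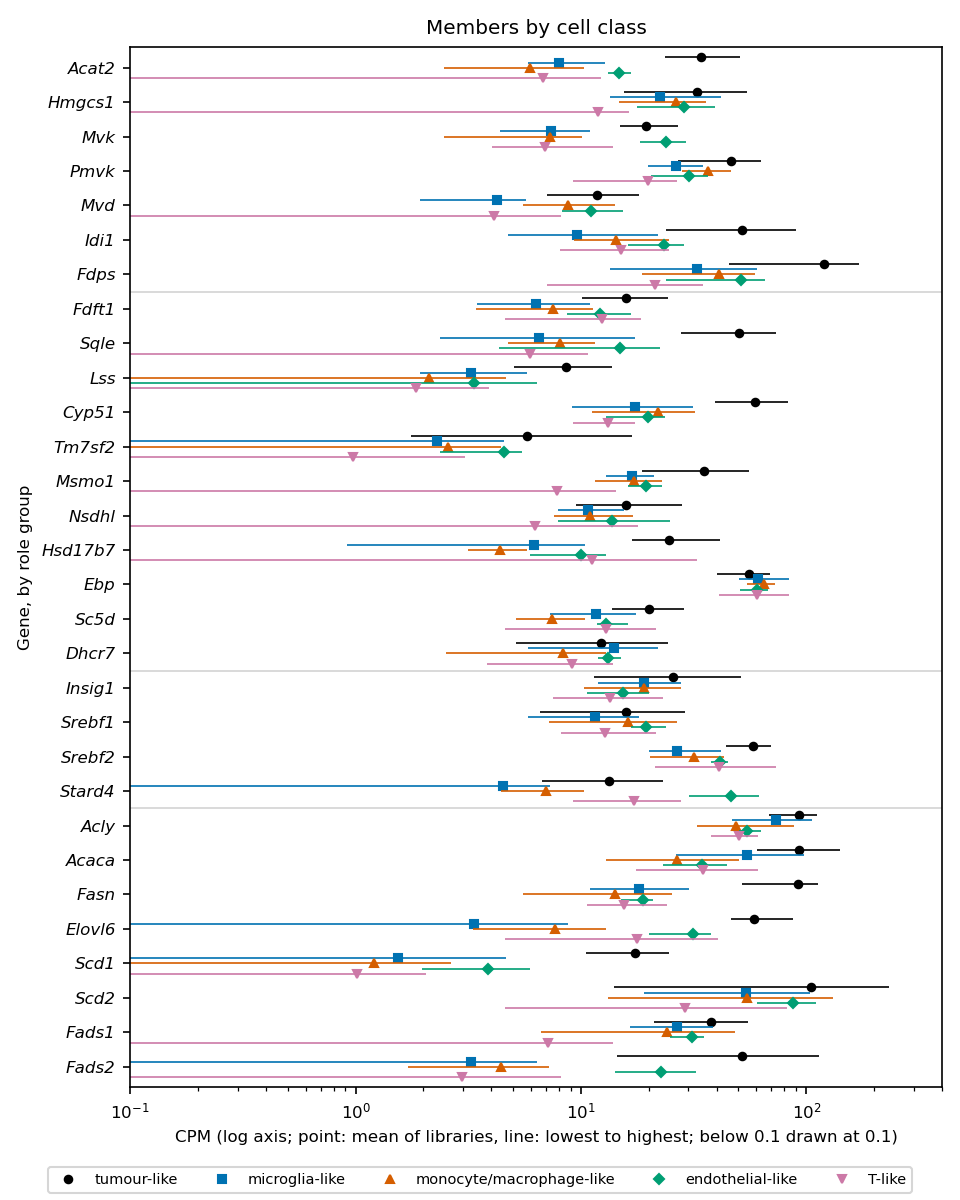
Level of each of the 30 members in 5 cell classes, in CPM on a log axis. Points are means over 7 libraries (4 for endothelial-like cells), and lines run from the lowest to the highest library. Values under 0.1 are drawn at 0.1, and grey lines part the 4 role groups. Tumour-like cells are rightmost for 25 members in mean CPM (18 of them also above the other 3 tested classes on the TMM scale). The matching shares of all genes are not given. Stard4 is rightmost in endothelial-like cells.

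In the mevalonate and isoprenoid steps, 6 of 7 members were higher in tumour-like than in microglia-like cells, 4 of 7 than in monocyte/macrophage-like cells and 7 of 7 than in T-like cells. Of all genes, 37.7%, 38.2% and 36.4% were. Fdps, which makes farnesyl diphosphate, stood at 120 ± 45.1 CPM (SD, n = 7 libraries) in tumour-like cells and at 32.7 ± 16.1 CPM in microglia-like cells, a log2 difference of 1.59 ± 0.185 (SE, edgeR adjusted p = 5.66e-08). Idi1, the isomerase before it, stood at 51.8 ± 21.7 CPM against 9.64 ± 6.08 CPM, a log2 difference of 2.24 ± 0.265 (edgeR adjusted p = 7.82e-08). Hmgcs1, which makes HMG-CoA, did not pass against microglia-like cells (log2 difference 0.17 ± 0.239, edgeR adjusted p = 0.544). Acat2, a thiolase that joins acetyl-CoA units, was higher in tumour-like than in monocyte/macrophage-like cells by 1.99 ± 0.255 on the log2 scale (edgeR adjusted p = 2.60e-07), though in at least 1 library all its UMIs in the latter could be free RNA by the estimate. The Hmgcs1 and Mvd calls against T-like cells and the Pmvk call against microglia-like cells were each lost without any of several single libraries.

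In the squalene and sterol steps, 7, 6 and 7 of 11 members were higher in tumour-like cells than in microglia-like, monocyte/macrophage-like and T-like cells (37.7%, 38.2% and 36.4% of all genes). Sqle, the squalene epoxidase, averaged 50.4 ± 16.8 CPM in tumour-like cells and 5.96 to 8.05 CPM in the 3 immune classes. Its log2 difference was 2.82 ± 0.237 against microglia-like, 2.08 ± 0.212 against monocyte/macrophage-like and 2.21 ± 0.244 against T-like cells, each past the threshold in edgeR. Ebp, the sterol isomerase late in the pathway, went the other way, with 55.7 ± 10.5 CPM in tumour-like, 61.3 ± 14.6 in microglia-like, 64.9 ± 6.96 in monocyte/macrophage-like and 60.1 ± 15.0 CPM in T-like cells. On the TMM scale it was lower in tumour-like cells by 0.49 ± 0.138 against microglia-like cells (edgeR adjusted p = 0.00284), by 0.81 ± 0.137 against monocyte/macrophage-like cells (1.29e-05) and by 0.62 ± 0.145 against T-like cells (6.15e-04). With library totals the Ebp differences were -0.13, -0.24 and -0.20, with edgeR adjusted p of 0.342, 0.083 and 0.190, so that none of the 3 calls remained. Dhcr7, the last enzyme of cholesterol synthesis, was lower in tumour-like than in microglia-like cells (12.2 ± 6.52 and 14.0 ± 4.73 CPM), with a log2 difference of -0.61 ± 0.225 (edgeR adjusted p = 0.0191), and its adjusted p was 0.0667 without BPI and 0.710 with library totals. Without the filter on low counts neither gene passed against microglia-like cells, with adjusted p of 0.207 for Ebp and 0.189 for Dhcr7, and Ebp did not pass against T-like cells (0.0916). The calls of Sc5d against microglia-like, Fdft1 against monocyte/macrophage-like and Lss, Tm7sf2 and Nsdhl against T-like cells were lost without at least 1 single library.

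The control and transport group had the medians nearest 0, at 0.41, -0.05 and -0.07 against microglia-like, monocyte/macrophage-like and T-like cells. Srebf2 was higher in tumour-like than in microglia-like cells by a log2 difference of 0.83 ± 0.15 (edgeR adjusted p = 3.12e-05), as was Stard4, which moves sterol between membranes, by 1.12 ± 0.293 (0.00162). Against T-like cells Stard4 was lower, at 13.3 ± 5.87 CPM in tumour-like and 17.2 ± 5.88 CPM in T-like cells, a log2 difference of -1.01 ± 0.273 (edgeR adjusted p = 0.00229). With library totals this was -0.57 (0.0648) and no longer passed. Srebf1 was lower in tumour-like than in monocyte/macrophage-like cells, with a log2 difference of -0.62 ± 0.168 (edgeR adjusted p = 0.00212), and without BP replicate 1 its adjusted p was 0.123. Its mean was nearly the same in both, 15.8 ± 8.45 and 16.2 ± 7.12 CPM, and with library totals the difference was -0.03 (edgeR adjusted p = 0.873). Insig1 passed in none of the 3 contrasts on the TMM scale, while with library totals it was higher in tumour-like than in T-like cells (0.95, edgeR adjusted p = 0.00533). Its mean was 25.7 CPM in tumour-like and 19.1 CPM in microglia-like cells, and its log2 difference was -0.08 on the TMM scale and 0.31 with library totals.

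In the fatty-acid group, 4, 6 and 8 of 8 members were higher in tumour-like cells than in microglia-like, monocyte/macrophage-like and T-like cells (37.7%, 38.2% and 36.4% of all genes). Fasn, the fatty-acid synthase, averaged 91.6 ± 20.9 CPM in tumour-like cells against 14.1 to 18.9 CPM in the other 4 classes, and the log2 difference was 2.05 ± 0.197 against microglia-like cells (edgeR adjusted p = 2.26e-09). Elovl6, which lengthens fatty acids, averaged 58.8 ± 14.7 CPM against 3.34 ± 2.75 CPM in microglia-like cells (log2 difference 3.95 ± 0.389, edgeR adjusted p = 3.60e-09). Fads2, a desaturase of polyunsaturated fatty acids, was higher by 3.39 ± 0.259 against microglia-like and by 3.91 ± 0.313 against T-like cells (edgeR adjusted p = 4.07e-11 and 1.24e-10). Acly and Acaca, which supply acetyl-CoA and malonyl-CoA, read 73.3 ± 23.4 and 54.3 ± 26.4 CPM in microglia-like cells and 92.4 ± 13.8 and 92.9 ± 25.3 CPM in tumour-like cells. Neither passed between these classes on the TMM scale, with log2 differences of 0.0036 ± 0.156 for Acly and 0.47 ± 0.176 for Acaca. The edgeR adjusted p of Acaca, 0.890, is high for that difference and SE, so its lack of a call is uncertain. The reason for this mismatch was not tested. Both genes were called higher in tumour-like cells with library totals. The estimated free RNA reached 100% of a gene's UMIs in at least 1 library for Scd1, Fads2, Elovl6, Sqle, Idi1, Lss and Mvk in microglia-like cells. It did so for Scd1, Fads2, Lss, Mvk and Acat2 in monocyte/macrophage-like cells and for Scd1, Scd2 and Fads2 in T-like cells, and in such libraries these genes could not be told apart from free RNA. The Acly call against monocyte/macrophage-like cells was lost without any of 5 single libraries.

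Between the myeloid classes, 9 members were lower in microglia-like than in monocyte/macrophage-like cells and 1, Acaca, was higher (all genes 20.5% and 17.2%), with a median of -0.41 over the members and -0.03 over all genes. The 9 were Fdps, Pmvk, Mvd and Idi1 of the mevalonate steps, Cyp51 and Sqle of the sterol steps, both SREBP genes and Elovl6. The log2 difference was -0.66 ± 0.190 for Fdps (edgeR adjusted p = 0.00806) and -0.71 ± 0.203 for Pmvk (0.00775). Without BP replicate 1, 5 members were lower and 3 higher (2192 and 2267 of 11838 genes), and the calls of Cyp51, Sqle, Srebf1 and Srebf2 were lost. The Sqle call was also lost without any of BP replicate 2, BPI, CD40 and IgG replicate 2, and the Cyp51 call without BP replicate 2, CD40 or IgG replicate 2. The Srebf1 call was lost without IgG replicate 2, the Srebf2 call without BPI and the Elovl6 call without CD40. With microglia-like cells of c19 alone, in the 6 libraries with at least 20 of them, 6 members were lower (Fdps, Pmvk, Mvd, Idi1, Sqle and Elovl6) and 2 higher (Acaca and Acly), against 21.4% and 19.3% of all genes. With library totals 4 were lower (Pmvk, Mvd, Idi1 and Elovl6; 13.7% of all genes) and 3 higher (24.998%). The count of members lower was near the share of all genes in both settings.

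Endothelial-like cells had at least 20 cells in 4 libraries (UT, BP replicate 1, CD40 and IgG replicate 2), so their ranges over these libraries were compared without a test. Stard4 stood apart: it read 36.8, 30.3, 56.1 and 62.0 CPM in endothelial-like cells of these libraries, and 7.29 to 23.2 CPM in their tumour-like cells. Every endothelial-like value was above every tumour-like value, and free RNA was estimated at no more than 17.7% of its UMIs. It was the only member higher without overlap among 28 compared with tumour-like cells (14.8% of all genes were), while 14 were lower (30.5% of all genes): Sqle, Cyp51, Msmo1, Hsd17b7, Sc5d, Srebf2, Acat2 and 7 of the 8 fatty-acid members, all but Scd2. Against the immune classes, endothelial-like cells were higher without overlap for 8 of 23 members against microglia-like cells (24.3% of all genes), 8 of 26 against monocyte/macrophage-like cells (23.5%) and 7 of 25 against T-like cells (24.0%), and lower for 0 in each (13.3%, 12.2% and 11.8% of all genes). Free RNA was estimated at 11.0% to 52.1% of endothelial-like UMIs in these 4 libraries, and it reached 100% of the UMIs of 11 members in at least 1 of them (Sqle, Cyp51, Tm7sf2, Msmo1, Sc5d, Pmvk, Insig1, Fasn, Scd1, Scd2 and Fads1). Of the members counted as higher than an immune class, these include Sc5d, Msmo1 and Fads1, and the estimate reached 98.9% for Fads2, 95.3% for Idi1 and 87.9% for Acat2. The shares higher than the immune classes lie near those of all genes, most closely for T-like cells, and the part of free RNA in them was not tested.

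Among tumour-like cells, the members varied between libraries by factors from 1.60 for Srebf2 to 16.6 for Scd2, taken as the highest over the lowest CPM. Scd2, the desaturase of the brain that makes monounsaturated fatty acids, read 44.6 CPM in IgG replicate 1, 25.4 in BP replicate 2 and 14.1 in BPI, but 178 in IgG replicate 2, 144 in CD40, 98.9 in UT and 233 in BP replicate 1. The 3 libraries of set A were thus all below the other 4. Fads2 behaved alike, with 26.6, 19.98 and 14.4 CPM in set A against 54.4 to 113 CPM elsewhere. Of 28 members with a mean of at least 10 CPM, 6 were lower in all set A libraries than in all others (Msmo1, Sc5d, Srebf1, Scd2, Fads1 and Fads2; 30.8% of all genes were), and 1, Ebp, was higher (7.98%). As set A also differs from the rest in its tumour-like clusters, the ratios of treated to IgG libraries below were taken within a set. The comparison of UT with BP replicate 1 and the tests against both IgG libraries do not stay within a set.

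The members with the highest tumour-like mean of their role group, and those highest in another class, also differed outside the sets. Fdps read 172 CPM in UT and 45.4 CPM in BP replicate 1, the highest and the lowest of all libraries. Cyp51, the lanosterol demethylase, read 58.3 and 39.5 CPM in UT and BP replicate 1, against 45.1 to 82.7 CPM in the other 5. Srebf2 read 59.3 and 46.7 CPM there and 43.8 to 70.0 CPM elsewhere, so it varied little. Dhcr7 and Srebf1 were highest in UT, with 24.3 and 29.0 CPM, and read 10.1 and 22.5 CPM in BP replicate 1. Stard4 read 15.6 CPM in UT and 7.29 CPM in BP replicate 1, and Ebp 50.6 and 40.1 CPM. Mvk, the mevalonate kinase, read 22.8 CPM in UT, 14.9 in BP replicate 1, 20.2 in IgG replicate 1, 17.6 in BP replicate 2, 15.01 in BPI, 18.5 in CD40 and 27.02 in IgG replicate 2. BP replicate 1 was thus below UT for these 8 genes, but above it for Scd2, which the same choice takes from the fatty-acid group. Higher in BP replicate 1 were Lss and Hsd17b7 of the sterol steps and Scd1, Scd2, Fasn, Acaca, Elovl6 and Fads1 of the fatty-acid group. Scd2 read 98.9 CPM in UT and 233 in BP replicate 1, and Hsd17b7 18.99 and 21.2 CPM. These libraries belong to no set, and no share of all genes is given for this comparison, so its counts cannot be read as a trait of the members. The fatty-acid sum was 528 CPM in UT and 758 CPM in BP replicate 1.

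**Figure D2:**
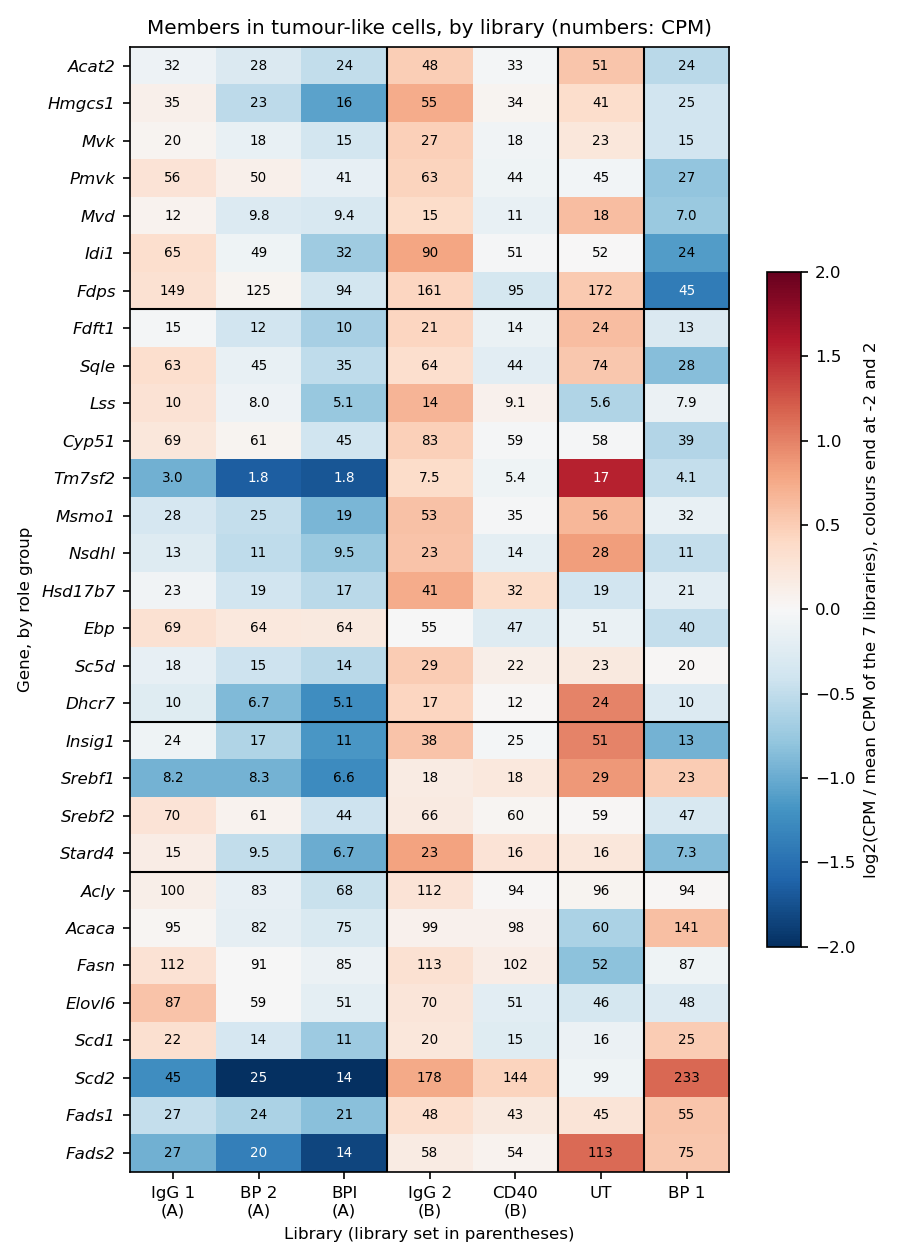
CPM of each of the 30 members in tumour-like cells of the 7 libraries, printed in each cell and coloured by log2 of the ratio to the mean over libraries, with colours ending at -2 and 2. Columns are ordered by library set and black lines part the sets and the 4 role groups; within set A colours turn bluer from IgG 1 to BP 2 to BPI for nearly every gene, within set B from IgG 2 to CD40, and the Scd2 row runs from 14.1 to 233 CPM.

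Within set A, the 18 genes of the mevalonate and sterol steps summed to 693 CPM in tumour-like cells of IgG replicate 1, 572 in BP replicate 2 and 456 in BPI. Against the IgG library this is 17.5% lower in BP replicate 2 (log2 ratio -0.28, 95% counting interval -0.30 to -0.26) and 34.2% lower in BPI (-0.60, -0.63 to -0.58). The 8 fatty-acid genes summed to 513, 398 and 339 CPM (log2 ratios -0.37 and -0.60), and the 4 control genes to 117, 95.7 and 68.6 CPM (-0.29 and -0.77). Counting intervals cover counting error only, and with 1 library a group there is no replicate check. Of the 30 members, 29 were lower in BP replicate 2 than in IgG replicate 1, where 60.3% of 13953 compared genes were, and 30 were lower in BPI, where 68.9% of 13725 were. More than 1.5-fold lower were 6 members in BP replicate 2 (2.85% of all genes) and 17 in BPI (8.14% of all genes), and none were more than 1.5-fold higher (3.68% and 4.34% of all genes). The median log2 ratio was -0.30 over the members and -0.04 over all genes in BP replicate 2, and -0.62 against -0.13 in BPI. With TMM scaling, which takes up part of that shift of all genes, the sterol log2 ratio was -0.47 in BPI, 29 members were lower (50.3% of all genes) and 12 past 1.5-fold (5.33%). In cells of 8000 to 16000 UMIs, 3 members in place of 6 were past 1.5-fold in BP replicate 2 (1.93% of all genes).

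By role, the control genes had the lowest median in BPI, -0.88, then the fatty-acid genes at -0.66, the squalene and sterol genes at -0.62 and the mevalonate genes at -0.44. Hmgcs1 read 35.0 CPM in IgG replicate 1, 22.8 in BP replicate 2 and 15.6 in BPI (log2 ratios to IgG of -0.62 and -1.16). Idi1 read 65.3, 49.0 and 31.8 CPM, with log2 ratios of -0.41 and -1.04, and Fdps 149, 125 and 93.6 CPM. These genes were lower in each treated library than in the IgG library, and lowest in BPI. Among the sterol steps, Sqle read 63.4, 45.5 and 35.3 CPM and Lss, which closes squalene epoxide into lanosterol, 10.5, 8.01 and 5.05 CPM. Dhcr7 read 10.3, 6.66 and 5.14 CPM, a log2 ratio of -1.001 in BPI (interval -1.22 to -0.79). Cyp51 read 69.5, 61.3 and 45.1 CPM, Fdft1, the squalene synthase, 15.5, 12.2 and 10.1 CPM, and Tm7sf2, a sterol reductase, 2.96, 1.85 and 1.76 CPM. Tm7sf2 was past 1.5-fold in both treated libraries, and Cyp51 and Fdft1 in BPI alone. Ebp had the log2 ratios nearest 0 of the sterol steps, with 68.9, 64.4 and 63.8 CPM. Msmo1, which removes the methyl groups of lanosterol, sat on the 1.5-fold border in BPI, with 28.1 CPM in IgG replicate 1 and 18.7 in BPI (1.501-fold). Of the control genes, Insig1 read 24.2, 17.0 and 11.5 CPM and Stard4 14.7, 9.48 and 6.69 CPM, so that both were more than 2-fold lower in BPI than in IgG replicate 1. Srebf2 read 70.0, 61.0 and 43.8 CPM, while Srebf1 read 8.23, 8.26 and 6.604 CPM. Of the fatty-acid genes, Scd2 was 1.76-fold lower in BP replicate 2 and 3.17-fold lower in BPI than in IgG replicate 1 (log2 ratios -0.81 and -1.67, intervals -0.91 to -0.72 and -1.79 to -1.54). Scd1, its neighbour on chromosome 19, read 21.7, 13.7 and 10.5 CPM, and Elovl6 87.0, 58.5 and 51.1 CPM. Fasn read 112, 91.4 and 84.5 CPM and so stayed within 1.5-fold, as did Acly, Acaca and Fads1.

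BPI and BP replicate 2 differ in the labels by IPI-145. All 30 members were lower in BPI than in BP replicate 2 (69.2% of 13415 genes), 3 by more than 1.5-fold (2.62% of all genes): Scd2 (log2 ratio -0.85), Lss (-0.66) and Idi1 (-0.63). The median was -0.30 over the members and -0.09 over all genes, and 26 of 30 counting intervals lay below 0. With TMM scaling 27 members were lower (50.01% of all genes) and 1 was past 1.5-fold (1.76%), and in cells of 8000 to 16000 UMIs 6 were (2.17%). The order IgG replicate 1 above BP replicate 2 above BPI held for 29 of 30 members, all but Srebf1, and for 44.8% of genes with a mean of at least 10 CPM. The contrasts of set A share their libraries and are not independent of each other.

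Within set B, the 18 sterol genes summed to 866 CPM in tumour-like cells of IgG replicate 2 and 578 CPM in CD40, 33.3% lower (log2 ratio -0.58, interval -0.60 to -0.57). The fatty-acid genes differed less, with 697 and 601 CPM (-0.21, -0.23 to -0.20), and the control genes stood at 145 and 119 CPM (-0.28). Of the 30 members 29 were lower in CD40, where 38.5% of 15807 genes were, and 7 were more than 1.5-fold lower (0.69% of all genes) and none higher (6.31% of all genes). The median was -0.49 over the members and 0.05 over all genes. With TMM scaling 13 members were more than 1.5-fold lower (1.01% of all genes) and 30 lower (55.2%), and in cells of 8000 to 16000 UMIs 11 were more than 1.5-fold lower (1.08%).

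The 7 genes past 1.5-fold in CD40 were all of sterol synthesis or its control. Idi1 read 89.8 CPM in IgG replicate 2 and 51.2 in CD40 (log2 ratio -0.81, interval -0.86 to -0.76), Fdps 161 and 94.6 CPM (-0.77), and Hmgcs1 54.8 and 34.0 CPM (-0.69). Nsdhl, a dehydrogenase in the removal of sterol methyl groups, read 23.5 and 13.9 CPM (-0.76), and Msmo1 52.8 and 34.5 CPM (-0.61). Insig1 read 38.1 and 25.01 CPM (-0.61), and Lss, at 13.7 and 9.13 CPM (-0.59), lay just past the border. By role the median was -0.55 for the mevalonate steps, -0.50 for the sterol steps, -0.34 for the control genes and -0.20 for the fatty-acid genes, of which none passed 1.5-fold. Acaca read 98.9 and 98.1 CPM and Srebf1 17.8 and 18.4 CPM, so neither differed beyond its counting interval. Scd2, the member with the widest gap in set A, read 178 and 144 CPM (-0.30). Cyp51 read 82.7 and 58.6 CPM, Stard4 23.2 and 16.0 CPM, Dhcr7 16.5 and 12.4 CPM, Srebf2 65.7 and 59.9 CPM and Ebp 55.5 and 46.7 CPM, each lower in CD40 by less than 1.5-fold.

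**Figure D3:**
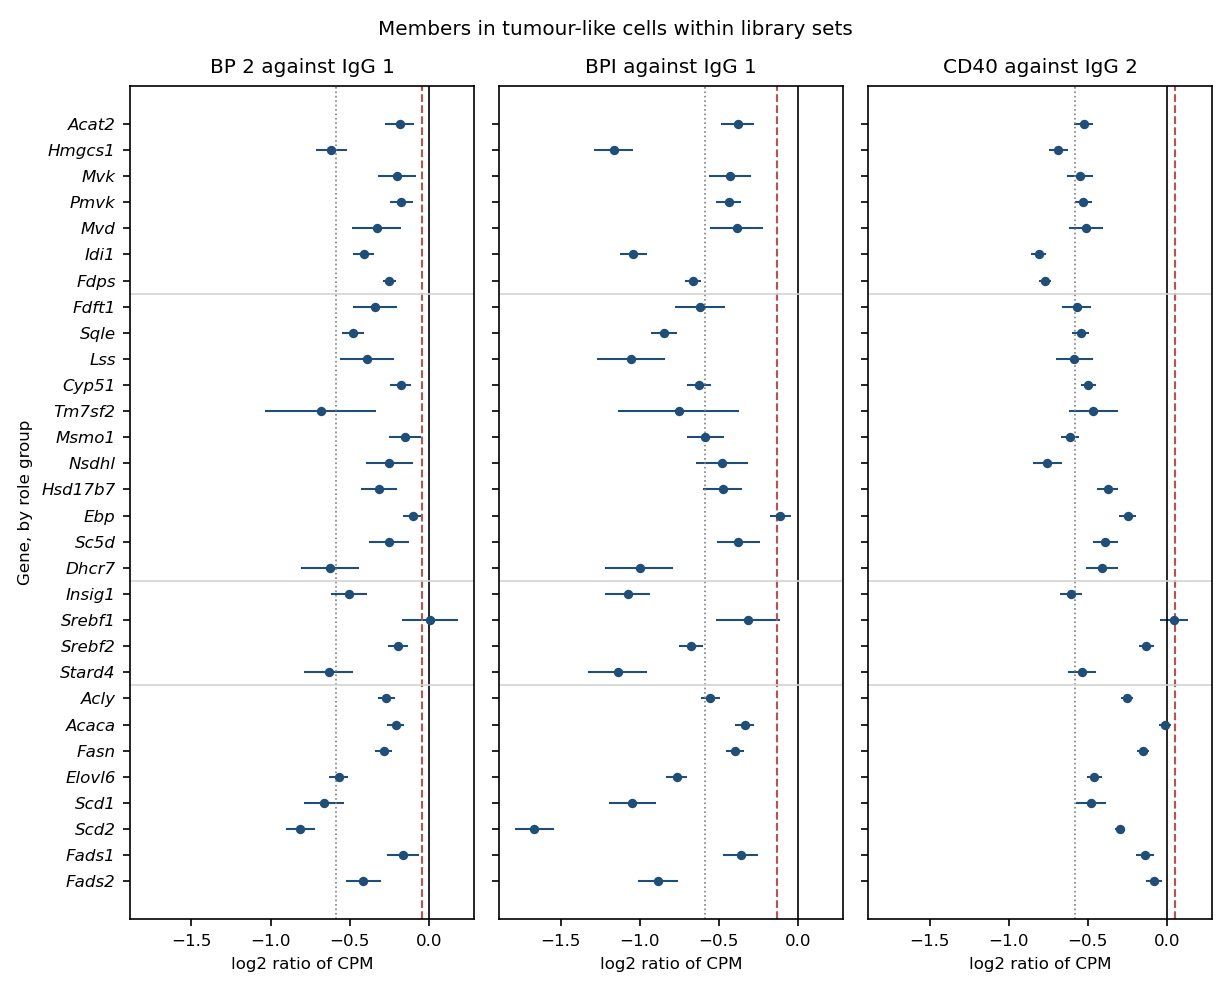
Log2 ratio of CPM in tumour-like cells for the 30 members, in BP 2 and BPI against IgG 1 (set A) and in CD40 against IgG 2 (set B), with 95% counting intervals as bars. The solid line is 0, the dotted line 1.5-fold lower and the dashed red line the median of all compared genes; nearly all points lie left of both the solid and the red line, with 6, 17 and 7 points left of the dotted line.

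Fdps, Hmgcs1, Idi1, Insig1, Lss and Msmo1 were the 6 of 30 members past 1.5-fold in both BPI and CD40, as were 26 of 13527 genes (0.192%), and the start regions of all but Fdps are those printed with the motifs. The set of 6 moved with the setting, and Msmo1 in BPI and Lss in CD40 sat on the 1.5-fold border. Without Msmo1 it held 5 members with free RNA subtracted (0.212% of all genes) and in cells of at least 2000 UMIs (0.185%). With TMM scaling it held 6, with Sqle and Stard4 in place of Fdps and Msmo1 (0.214%), and in cells of 8000 to 16000 UMIs 7, with Sqle and Tm7sf2 but not Insig1 (0.231%). The treatments of these libraries differ, and whether the differences between sets A and B in the members affected are more than the spread between pools was not tested.

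The lower sums were also seen inside each tumour-like cluster that the libraries of a set shared with at least 50 cells each. In clusters c10, c23 and c25 the log2 ratio of the sterol sum ran from -0.30 to -0.15 in BP replicate 2 and from -0.70 to -0.49 in BPI, against IgG replicate 1. In the 5 shared clusters of set B it ran from -1.15 to -0.48 in CD40, with the largest gap in c05, where 165 cells of IgG replicate 2 gave 1652 CPM and 228 cells of CD40 gave 743 CPM. The fatty-acid sum was lower in every one of these clusters as well, from -0.69 to -0.50 in BPI and from -0.43 to -0.13 in CD40.

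**Figure D4:**
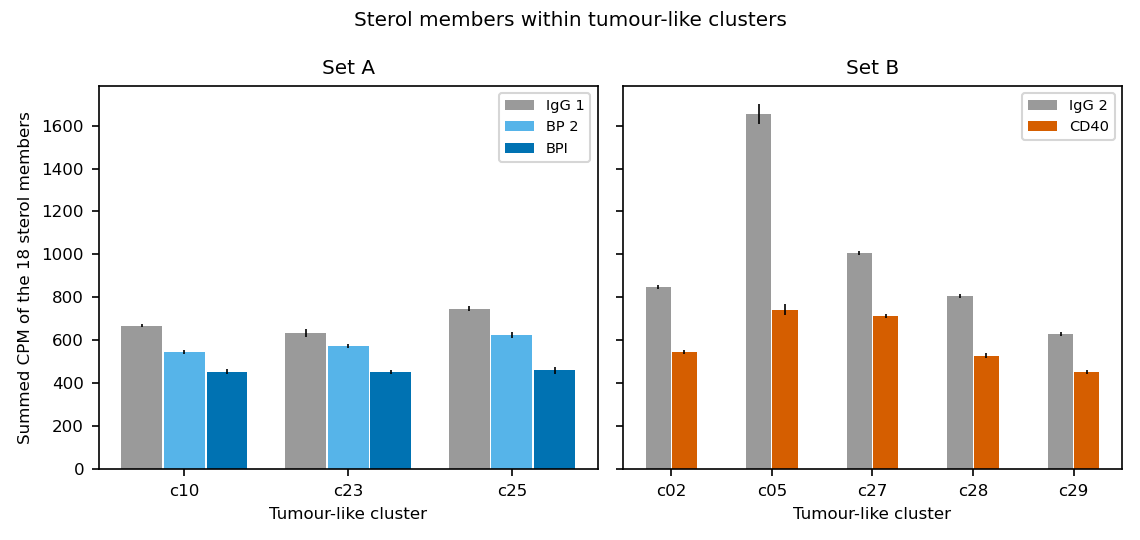
Summed CPM of the 18 sterol members within tumour-like clusters shared by the libraries of set A (left) and set B (right), with bars starting at 0 and exact Poisson intervals that cover counting error only. IgG 1 is above BP 2 and BP 2 above BPI in 3 of 3 clusters, and IgG 2 is above CD40 in 5 of 5, the widest gap being 1652 against 743 CPM in c05.

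Other measures moved across the same libraries. In set A the median UMIs per tumour-like cell were 15839, 13251.5 and 10562 in IgG replicate 1, BP replicate 2 and BPI. Unnamed cells, left out of every class, were 19.7%, 14.0% and 7.56% of cells there, with median UMIs of 1585, 1575 and 1775. In IgG replicate 2 and CD40 they were 6.69% and 9.38%. In cells of 8000 to 16000 UMIs the sterol log2 ratio was -0.25 in BP replicate 2 and -0.60 in BPI, close to the values for all cells. The 12 interferon-response genes summed to 555, 1062 and 2741 CPM in set A, the reverse order of the sterol genes, but to 302 and 278 CPM in IgG replicate 2 and CD40. Outside the sets they summed to 6611 CPM in UT and 4718 CPM in BP replicate 1, where the sterol sums were 782 and 394 CPM. The 14 cell-cycle genes summed to 3056, 2833 and 2651 CPM in set A and to 3259 and 3325 CPM in set B. The 11 monocyte/macrophage markers summed to 14.1, 25.04 and 40.9 CPM in these tumour-like cells and the 11 T-cell markers to 7.79, 10.2 and 15.2 CPM, against 5.66 and 8.08 CPM and 11.0 and 13.03 CPM in IgG replicate 2 and CD40. The 8 microglia markers summed to 75.5, 81.5 and 92.6 CPM in set A and to 129 and 164 CPM in set B. The 12 tumour markers summed to 700, 651 and 575 CPM in set A, in the order of the sterol sum, and to 1195 and 1187 CPM in IgG replicate 2 and CD40. The part of these measures in the lower sterol and fatty-acid values was not tested. With the estimated free RNA subtracted, the sterol log2 ratios were -0.29, -0.61 and -0.59 in BP replicate 2, BPI and CD40.

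Across all libraries, the treated groups were also tested against both IgG libraries, with 6 libraries in the fit for BP, BPI and CD40 and 7 for UT. In tumour-like cells edgeR called 0 of 30 members in each contrast, as it called 0.0% of all genes, and DESeq2 called 0 members as well. At an unadjusted p under 0.05, edgeR gave 3 members for BP, 2 for BPI, 0 for CD40 and 1 for UT. DESeq2 gave 3, 6, 0 and 3 members. Its counts over all genes at this threshold are not given, so these cannot be read as a trait of the members. Of all genes, edgeR gave 390, 195 and 22 of 20422 for BP, BPI and CD40 and 2400 of 20172 for UT, so the count of members for UT was low for that contrast. On simulated counts this tumour-like fit recovered few of the changes put in, so the lack of calls says little. With set A against the other libraries as a term, 0 members were called and 13, 10, 0 and 7 had an unadjusted p under 0.05 (1766, 907 and 191 of 20422 genes, and 4660 of 20172), with smallest edgeR adjusted p of 0.228, 0.365, 1.0 and 0.0609. The fitted differences were negative for 25 of 30 members in BP, 29 in BPI, 26 in CD40 and 17 in UT (50.01%, 54.98%, 49.6% and 52.6% of all genes), with medians of -0.57, -0.64, -0.42 and -0.11. The spread between the IgG libraries themselves was wide: Scd2 read 44.6 and 178 CPM in them, and Srebf1 8.23 and 17.8 CPM. In BP the replicates also parted, with a sterol sum of 394 CPM in replicate 1 and 572 in replicate 2, and a fatty-acid sum of 758 and 398 CPM. The untreated library had a sterol sum of 782 CPM, between the IgG libraries at 693 and 866 CPM.

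In microglia-like, monocyte/macrophage-like and T-like cells edgeR also called 0 members in each of the 12 contrasts, and DESeq2 called 0. Of all genes, edgeR called 0.0% in each microglia-like contrast, and in monocyte/macrophage-like cells 0.0% for BP and CD40, 0.2% for BPI and 0.445% for UT. In T-like cells it called 0.873% of all genes for BP, 0.556% for BPI, 0.0873% for CD40 and 2.5% for UT. In the microglia-like class the contrasts of UT and BP with IgG set libraries mostly of c13 against libraries mostly of c19, save for BP replicate 2. Scd2 in monocyte/macrophage-like cells read 14.6 CPM in UT and 36.1 and 96.6 CPM in the IgG libraries, a log2 difference of -1.84 ± 0.960 (edgeR adjusted p = 0.491). In an edgeR fit with set A against the other libraries as a term, that difference was -2.60 ± 0.549 (adjusted p = 2.12e-04), where 936 of 12803 genes were called, and without BP replicate 1, BP replicate 2 or the low-count filter Scd2 also passed. Free RNA was estimated at 69.9% of its UMIs in UT.

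In microglia-like cells 21 members could be compared between CD40 and IgG replicate 2, of which 17 were lower (46.7% of all genes) and none more than 1.5-fold lower or higher (1.46% and 2.81%), with a median of -0.10 and of 0.02 over all genes. With the estimated free RNA subtracted, 11 of the 18 members then compared were lower (47.4% of all genes). Fdps read 17.7 and 23.0 CPM there (log2 ratio -0.38, interval -0.69 to -0.07). In endothelial-like cells 14 of 17 were lower (48.5% of all genes), with a median of -0.13, and Elovl6 alone passed 1.5-fold (20.1 against 35.5 CPM; 1.77% of all genes were past it lower and 3.81% higher). Free RNA was estimated at 11.0% and 12.3% of endothelial-like UMIs in CD40 and IgG replicate 2. The free RNA itself held sterol sums of 486 and 712 CPM in these libraries, against 383 and 411 CPM in endothelial-like cells. Its part in the lower endothelial-like values was not tested. In monocyte/macrophage-like cells 4 of 10 members compared were lower (52.3% of all genes) and 6 higher, with a median of 0.14 and of -0.02 over all genes, and none passed 1.5-fold lower or higher (4.5% and 6.22%). In set A these classes held few UMIs, so at most 7 members could be compared in any pair. The single member past 1.5-fold was Ebp, higher in T-like cells of BPI than of IgG replicate 1 with 153 and 5 UMIs (log2 ratio 1.03, interval -0.22 to 2.67; 23.5% of all genes were past 1.5-fold higher). Whether tumour-like cells differ from these classes in the size of the change was not tested.

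Other lipid genes were followed in 5 lists of 67 genes. Genes of SREBP processing, which escort and cut the SREBP proteins, had 0 of 9 members past 1.5-fold within the sets, where 2.85%, 8.14% and 0.69% of all genes were past it lower in BP replicate 2, BPI and CD40, so that 0 is near the background for a list of this size. Its medians were -0.01, -0.10 and 0.01, against -0.04, -0.13 and 0.05 over all genes. Scap, the escort protein, read 20.1, 19.9 and 18.1 CPM in set A and 31.0 and 31.0 CPM in set B. Fatty-acid oxidation genes had 0 of 15 past 1.5-fold, also near these shares of all genes, with medians of -0.16, -0.15 and -0.07. Among further fatty-acid steps, Acacb (8.06 and 4.82 CPM in IgG replicate 1 and BPI) and Me1, the malic enzyme that supplies NADPH (42.5 and 27.2 CPM), were the 2 of 14 past 1.5-fold lower in BPI, where 8.14% of all genes were, and 0 were in BP replicate 2 or CD40.

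Among genes of sterol efflux and lipid uptake no member was more than 1.5-fold lower within a set. In CD40, 2 of 12 efflux genes were more than 1.5-fold higher than in IgG replicate 2, where 6.31% of all genes were: Abca1, the cholesterol exporter (65.1 against 37.8 CPM), and Apoc1 (0.635 against 0.339 CPM). The Apoc1 levels were very low, and both genes were lower in tumour-like than in microglia-like and monocyte/macrophage-like cells. Microglia markers in these tumour-like cells summed to 164 CPM in CD40 and 129 CPM in IgG replicate 2. The part of microglial RNA in the 2 genes was not tested. In set A 0 of 11 passed either way. Of the uptake and storage genes, Vldlr, a lipoprotein receptor, read 7.62 CPM in IgG replicate 1, 28.5 in BP replicate 2 and 23.8 in BPI, and Fabp7, a fatty-acid binding protein of glia, 1.09, 3.05 and 4.78 CPM. Both were past 1.5-fold higher in both treated libraries of set A, while in set B Vldlr read 12.9 and 14.8 CPM and Fabp7 155 and 121 CPM in IgG replicate 2 and CD40. They were 2 of 9 uptake and storage genes compared in set A (3.68% of all genes were past it higher in BP replicate 2 and 4.34% in BPI), and in CD40 Dgat2, which makes triglycerides, was the 1 of 10 (1.42 against 0.925 CPM). Between classes, 12 of 13 efflux genes were lower in tumour-like than in microglia-like cells and 13 of 13 lower than in monocyte/macrophage-like cells by edgeR (33.1% and 34.5% of all genes). Against T-like cells 6 of 13 were lower (29.4% of all genes) and 3 higher, namely Nr1h3, Abca1 and Apoe (36.4%).

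Among 9382 genes with a mean of at least 10 CPM in tumour-like cells, 4 of the 5 genes outside the list whose log2 CPM ran most like the sterol sum over the 7 libraries were Bpgm, Hmgn3, Polr2i and Tbcb, with Pearson coefficients of 0.98, 0.97, 0.97 and 0.97. The 7 points share their libraries and depth, and the coefficients are given as a description. The 16 mevalonate and sterol members at this level, which contribute to the sum themselves, ran from 0.31 for Ebp, 0.52 for Hsd17b7 and 0.60 for Sc5d up to 0.97 for Mvk, and the fatty-acid members from -0.45 for Acaca to 0.64 for Acly.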

How the data were processed

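The authors deposited raw UMI counts for all barcodes, neither normalized nor limited to cells, as checked on the values. The file headers name Cell Ranger 4 and the submitters' processing notes name Cell Ranger 7.0.1 on mm10, a conflict not settled here. A further tumour model named by the series is not analysed here.

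Kept were barcodes of at least 1000 UMIs and 500 genes with no more than 15% of UMIs mitochondrial, and the highest Scrublet scores (0.8% per 1000 cells, 3207 cells) were removed as doublets (scanpy 1.11.5). Cells of all libraries were clustered together (2000 variable genes, 30 components, 15 neighbours, Leiden resolution 1, igraph 0.11.9) without batch correction and without the members and other lipid genes (96). A cluster was named "X-like" with at least 3 raised markers of 19 lists, raised meaning at least 20 CPM and 4 times the lower-quartile cluster plus 5 CPM. This naming rule and the estimate of free RNA, from barcodes of 10 to 100 UMIs, were set after seeing the data. The members and lists were chosen with earlier results of these data known.

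Counts were summed per library and class. Within sets, members with at least 100 UMIs in the pair were compared, and past 1.5-fold counted as called. edgeR 4.0.16 (quasi-likelihood, TMM, filterByExpr, R 4.3.3) gave the tests, with DESeq2 1.42.0 as an alternative; a class was fitted where each library held at least 20 of its cells, and lone libraries were assumed to vary like the replicated groups. Both scripts were tested on simulated counts, where few of the changes put in were recovered by the treatment fit in tumour-like cells and more in the other classes. By rule, values in every library were given for the member of each role group with the highest tumour-like mean, up to 3 members with the widest ratio past 1.5-fold per pair and members highest in another class, and the 5 genes most like the sterol sum were taken; other genes were named after their values were seen. One gene most like the sterol sum is not reported here. Start regions are RefSeq's (GRCm38.p6).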

Additional observations from a re-analysis of the deposited data

How the results depend on the processing

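Of the recomputed summary values, 275 stayed and 68 moved, and none reversed. The sterol and fatty-acid sums stayed lower in tumour-like cells under every setting run. With TMM scaling their log2 ratios were -0.24 and -0.33 in BP replicate 2, -0.47 and -0.47 in BPI, -0.24 and -0.14 in BPI against BP replicate 2, and -0.66 and -0.29 in CD40. In cells of 8000 to 16000 UMIs they were -0.25 and -0.32 in BP replicate 2, -0.57 for fatty acid in BPI, and -0.64 and -0.27 in CD40. Within clusters, BP replicate 2 gave -0.43 for fatty acid in c10, -0.15 and -0.29 in c23 and -0.32 for fatty acid in c25. BPI gave -0.56 for sterol in c10, -0.49 and -0.50 in c23, and -0.70 and -0.69 in c25. BPI against BP replicate 2 gave -0.26 and -0.18 in c10, -0.44 and -0.37 in c25, and -0.24 and -0.30 in c27. CD40 gave -0.64 for sterol in c02, -1.15 and -0.43 in c05, -0.50 for sterol in c27, -0.61 for sterol in c28, and -0.48 and -0.13 in c29.

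At 2-fold in place of 1.5-fold, 0 members were past it in BP replicate 2, 8 in BPI, 0 in BPI against BP replicate 2 and 0 in CD40 (0.581%, 2.30%, 0.306% and 0.133% of all genes), a stricter threshold by construction. In cells of 8000 to 16000 UMIs the counts past 1.5-fold were 3 in BP replicate 2, 6 in BPI against BP replicate 2 and 11 in CD40, and with TMM scaling 1 and 13 in the last 2 contrasts. In microglia-like cells, 11 members were lower in CD40 with free RNA subtracted, and with a minimum of 40 UMIs 1 was past 1.5-fold lower (3.01% of all genes). The cause of these shifts was not tested.

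Between classes without the low-count filter, 0 members were lower in tumour-like than in microglia-like cells and 1 lower than in T-like cells. The shares of all genes without this filter are not given, so these counts have no background to be read against. With library totals in place of TMM 0 members were lower in tumour-like cells in any contrast. The shares of all genes lower there were 25.04% against microglia-like, 22.7% against monocyte/macrophage-like and 19.7% against T-like cells. On the same scale 3 members were higher and 4 lower in microglia-like than in monocyte/macrophage-like cells (24.998% and 13.7% of all genes). With c19 alone as microglia-like cells, 1 member was lower in tumour-like than in these cells (33.2% of all genes), and 2 were higher in them than in monocyte/macrophage-like cells (19.3%). Both settings were chosen after seeing the data. DESeq2 called 2 members higher in microglia-like than in monocyte/macrophage-like cells (3072 of 27437 genes). Leaving out 1 library in turn gave 1 to 2 members lower in tumour-like than in microglia-like cells (3884 to 4264 of 11838 to 13150 genes), 1 to 3 lower than in monocyte/macrophage-like cells (3876 to 4450 genes), and 1 to 3 higher (1844 to 2378 genes) and 5 to 10 lower (1981 to 2589 genes) in microglia-like than in monocyte/macrophage-like cells. For single genes, 77 recomputed calls fell short of the threshold and none reversed.

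Treatment tests called 1 member in place of 0 in these settings, each given with the count over all genes. Without BP replicate 2, Fdps was called for BP (edgeR adjusted p = 0.0277; 1071 of 13332 genes) and Scd2 for BPI (0.0489; 277 of 13332) in microglia-like cells, and Scd2 for BPI (0.0496; 795 of 12626) and UT (0.0240; 963 of 12732) in monocyte/macrophage-like cells. Scd2 was also called there without the filter for BPI (0.0326, with 599 of 21437 genes) and UT (0.0287, with 662 of 21753), without BP replicate 1 for UT (0.0384, with 749 of 11913), and with set A against the others as a term for UT (2.12e-04, with 936 of 12803). Leaving out 1 library in turn, these counts ran from 0 to 1. Over all genes in tumour-like cells DESeq2 called 64 for BP, 4 for BPI, 0 for CD40 and 770 for UT, where edgeR called 0.

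Same-numbered IgG and BP libraries did not deviate together: the correlation of their deviations was -0.67 in tumour-like cells, -0.23 in monocyte/macrophage-like, 0.16 in microglia-like and -0.06 in T-like cells, over 2 pairs. The set A term is the crossed pairing. With the replicate number as a block edgeR called 0 members in tumour-like cells, with 1, 0, 0 and 0 members at an unadjusted p under 0.05 for BP, BPI, CD40 and UT, whereas the crossed pairing gave 13, 10, 0 and 7. Depth limits the smaller classes, where few members reached 100 UMIs.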
